A study of Mus musculus with 20 samples.

Results

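The slow-fiber contractile genes described here are 9 genes for the thin filament, the light chains of myosin, the calcium store and the Z-disc of slow-twitch muscle fibers: Tnnt1, Tnni1, Tnnc1, Myl2, Myl3, Tpm3, Atp2a2, Casq2 and Myoz2. They were taken by name, with the myosin heavy chains left out, and all 9 were found among the 55401 genes of the count matrix. Bulk RNA-seq after depletion of ribosomal RNA had been run on the gastrocnemius, a mixed and mostly fast muscle of the calf, of 20 C57BL/6 mice aged 24 months. HK-treated mice (5 males and 5 females) had drunk water with Haenkenium (HK), an extract of Salvia haenkei that is rich in polyphenols, over the last 4 months. Untreated mice (5 males and 5 females) were of the same strain and age and drank water without it, no genetic change is given for either group, and each library came from 1 mouse. The libraries came from 2 sequencing experiments, batch 1 with 8 mice and batch 2 with 12, and each batch held both groups and both sexes. Mice are numbered within group and sex as labeled. The library of untreated male 3 had the highest levels of all mice for 8 of these 9 genes, and the fits of the 9 genes are given with and without it.

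Adult skeletal muscle is built from slow fibers, which tire little and run on oxidative metabolism, and fast fibers, which contract quickly and lean on glycolysis. The fibers share one sarcomere plan but fill it with different gene products. Troponin and tropomyosin on the thin filament let calcium switch contraction on, the light chains tune the myosin motor, and a pump and a buffer protein in the sarcoplasmic reticulum take calcium back up and store it. Calcineurin with NFAT factors, MEF2 and TEAD factors are known to favor the slow program, and Sox6 to favor the fast one. Most of the 9 genes are also active in heart muscle.

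The 9 genes lie on 6 chromosomes (GRCm38, GENCODE M21). Tnnt1 is on the minus strand at chr7:4504570-4516382, Tnni1 on the plus strand at chr1:135779434-135810989 and Tnnc1 on the plus strand at chr14:31208312-31211729. Myl2 (chr5:122100951-122113472, plus) and Atp2a2 (chr5:122453513-122502225, minus) lie on one chromosome, as do Tpm3 (chr3:90072649-90100902, plus), Casq2 (chr3:102086415-102146514, plus) and Myoz2 (chr3:123006206-123035015, minus), and Myl3 is at chr9:110741861-110769798 on the plus strand. In the matrix they carry the Ensembl identifiers ENSMUSG00000064179 (Tnnt1), ENSMUSG00000026418 (Tnni1), ENSMUSG00000091898 (Tnnc1), ENSMUSG00000013936 (Myl2), ENSMUSG00000059741 (Myl3), ENSMUSG00000027940 (Tpm3), ENSMUSG00000029467 (Atp2a2), ENSMUSG00000027861 (Casq2) and ENSMUSG00000028116 (Myoz2). Tnnc1 overlaps the gene Nisch on the opposite strand, and since the use of strand in counting is not given, reads of the pair (62999 counts for Tnnc1 and 31305 for Nisch over all mice) may be shared. The genes that overlap the other members held at most 310 counts. The 3 promoters below are shown because the members moved together in the results that follow, and each stands for another layer of the fiber (thin filament, calcium switch, calcium store). They are RefSeq sequences on GRCm38.p6 taken from before the start site and written in the direction of the gene. The capitals mark matches to an E-box (CANNTG, bound by myogenic factors), the MCAT element of TEAD factors (CATTCC, or GGAATG on the other strand) and the MEF2 site, searched on both strands.
Tnnt1, chr7:4516005-4516225, minus strand: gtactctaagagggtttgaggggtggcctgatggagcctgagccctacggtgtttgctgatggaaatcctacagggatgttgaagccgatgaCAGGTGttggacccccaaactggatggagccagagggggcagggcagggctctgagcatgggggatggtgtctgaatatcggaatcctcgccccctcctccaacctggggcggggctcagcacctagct
Tnnc1, chr14:31208062-31208311, plus strand: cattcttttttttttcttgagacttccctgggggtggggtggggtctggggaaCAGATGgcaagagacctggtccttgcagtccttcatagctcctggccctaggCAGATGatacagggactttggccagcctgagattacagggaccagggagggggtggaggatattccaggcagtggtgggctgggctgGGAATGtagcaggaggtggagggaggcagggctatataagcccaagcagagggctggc
Casq2, chr3:102086165-102086414, plus strand: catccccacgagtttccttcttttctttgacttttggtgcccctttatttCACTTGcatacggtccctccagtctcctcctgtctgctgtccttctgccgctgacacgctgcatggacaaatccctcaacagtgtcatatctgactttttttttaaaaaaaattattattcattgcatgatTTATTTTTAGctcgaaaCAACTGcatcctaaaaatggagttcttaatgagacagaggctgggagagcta
The Tnnt1 sequence holds 221 bases, since the 29 bases next to the start, into which annotated transcripts reach, are not printed, and the others hold 250 and end at the base before the start. The printed Tnnt1 sequence lies inside the span of its GENCODE gene, so it precedes the RefSeq start and not the outermost start of the gene. In these windows the only MEF2 match was in Casq2, 69 to 60 bases before the start (TTATTTTTAG), and the MCAT match of Tnnc1 lay 58 to 53 bases before its start.

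Windows of 250 bases were on hand for 8 of the 9 genes, all but Atp2a2. There were 11 windows, since Tnni1, Myl2 and Tpm3 had 2 each. An E-box was found in all 8 genes and all 11 windows, where 66.2% of the 32851 windows of all genes hold one. The NFAT core GGAAA was found in 5 of the 8 genes and 6 of the 11 windows, against 55.6% of all windows. MCAT matches were found in Tnnc1 and Myl3 (2 of the 11 windows, against 12.6% of all windows). MEF2 matches were found in Casq2 and Myoz2 (2 of 11, against 2.92%), and a CArG box in Myl3 alone (1 of 11, against 1.47%). No motif searched other than the E-box was held by all 8 genes, and a match is a description of letters, not of binding. The RefSeq starts of Myl2 lie upstream of the start of its GENCODE gene. The windows of Tnnt1, Tnni1 and Myl3 and the downstream window of Tpm3 lie wholly inside the spans of their GENCODE genes.

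Libraries held 13900180 to 30469644 counts per mouse (median 17016047), and 13626 genes passed the filter on low counts. All 9 members passed it, with at least 306 counts in every mouse (the lowest was Casq2). Levels are given as counts per 1000000 counts (CPM) after TMM scaling. The fast heavy chain Myh4, the main motor of this muscle, had a median of 10130 CPM per kilobase of exon in females and 9373 in males, so the libraries carry the RNA of a fast muscle, as labeled. Together the 9 genes took 0.0783% to 0.177% of the counts in 9 of the 10 males, 0.212% to 0.418% in the 10 females and 0.569% in untreated male 3. Whole muscle was sequenced, so fewer slow fibers and less RNA per slow fiber cannot be told apart. In untreated male 3 the male gene Ddx3y had 761 counts, against 1082 to 2916 in the other males and 0 to 1 in females. Xist, the RNA of the inactive X chromosome, had 2 counts there, against 0 to 15 in the other males and 2434 to 6876 in females.

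Males had lower levels than females of 7 of the 9 genes in the test over all 20 mice, with fitted folds of 1.48 to 2.4 over the 9. Without untreated male 3, a male picked out by its high values of these same genes, all 9 were lower, with folds of 1.6 to 3.13. HK-treated mice had lower fitted levels of all 9 than untreated mice, but none of these differences passed the test over all genes, and leaving out untreated male 3 shrank the median difference from -0.65 to -0.28 on the log2 scale. The values of the genes are given first by their place in the fiber.

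Tnnt1, which ties the slow troponin complex to tropomyosin, was at 266 CPM in the lowest, 322 in the median and 470 in the highest of 10 females. In the 9 males other than untreated male 3 it was at 60.1, 83.6 and 178 CPM, and in untreated male 3 at 791. Every female therefore stood above each of these 9 males, and untreated male 3 above every female. By group, Tnnt1 was at 295, 342, 470, 266 and 303 CPM in untreated females 1 to 5 and at 341, 314, 335, 329 and 290 CPM in HK-treated females 1 to 5. It was at 157, 83.6, 791, 82.7 and 178 CPM in untreated males 1 to 5 and at 73.8, 78.3, 60.1, 89.5 and 164 CPM in HK-treated males 1 to 5. In both sexes the HK-treated and untreated values overlapped.

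Tnni1, the inhibitory subunit of slow troponin, spanned 128 to 250.5 CPM in females (median 167) and 29.8 to 111 CPM in the 9 males (median 43.6), and was at 353 CPM in untreated male 3. Tnnc1, the calcium-binding subunit shared by slow and cardiac muscle, spanned 155 to 306 CPM in females (median 218) and 39.1 to 120 CPM in the 9 males (median 55.1), and reached 499 CPM in untreated male 3. Tpm3, the slow tropomyosin, spanned 253 to 569 CPM in females (median 363) and 86.9 to 191.5 CPM in the 9 males (median 108), and was at 880 CPM in untreated male 3. None of these 3 thin-filament genes had a male other than untreated male 3 within the range of the females. Untreated female 3 had the highest value among females for all 4 thin-filament genes, and untreated male 5 the highest among the 9 males.

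Myl2, the regulatory light chain of slow and ventricular myosin, was at 280 to 490 CPM in females (median 357) and 87.7 to 244 CPM in the 9 males (median 107). Myl3, the matching essential light chain, was at 334 to 458 CPM in females (median 374) and 135 to 318 CPM in the 9 males (median 178). Untreated male 3 was at 593 and 904 CPM, above all other mice for both. For the light chains the highest of the 9 males was untreated male 1, and for Myl3 that mouse (318 CPM) came close to the lowest female (334 CPM).

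Atp2a2, the SERCA2 pump that returns calcium to the sarcoplasmic reticulum, was at 540 to 1144 CPM in females (median 684) and 205 to 442 CPM in the 9 males (median 248), with 1151 CPM in untreated male 3. Casq2, the cardiac and slow-fiber calsequestrin that buffers calcium in the store, was at 45.4 to 87.2 CPM in females (median 53.5), 22.2 to 62.4 CPM in the 9 males (median 27.6) and 88.35 CPM in untreated male 3. Myoz2, or calsarcin-1, a Z-disc protein that binds calcineurin, was at 122 to 339 CPM in females (median 172), 67.3 to 139 CPM in the 9 males (median 96.5) and 241.5 CPM in untreated male 3. The sexes overlapped for these last 2 genes: 4 of the 9 males exceeded the lowest female for Casq2 and 1 did for Myoz2.

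**Figure D1:**
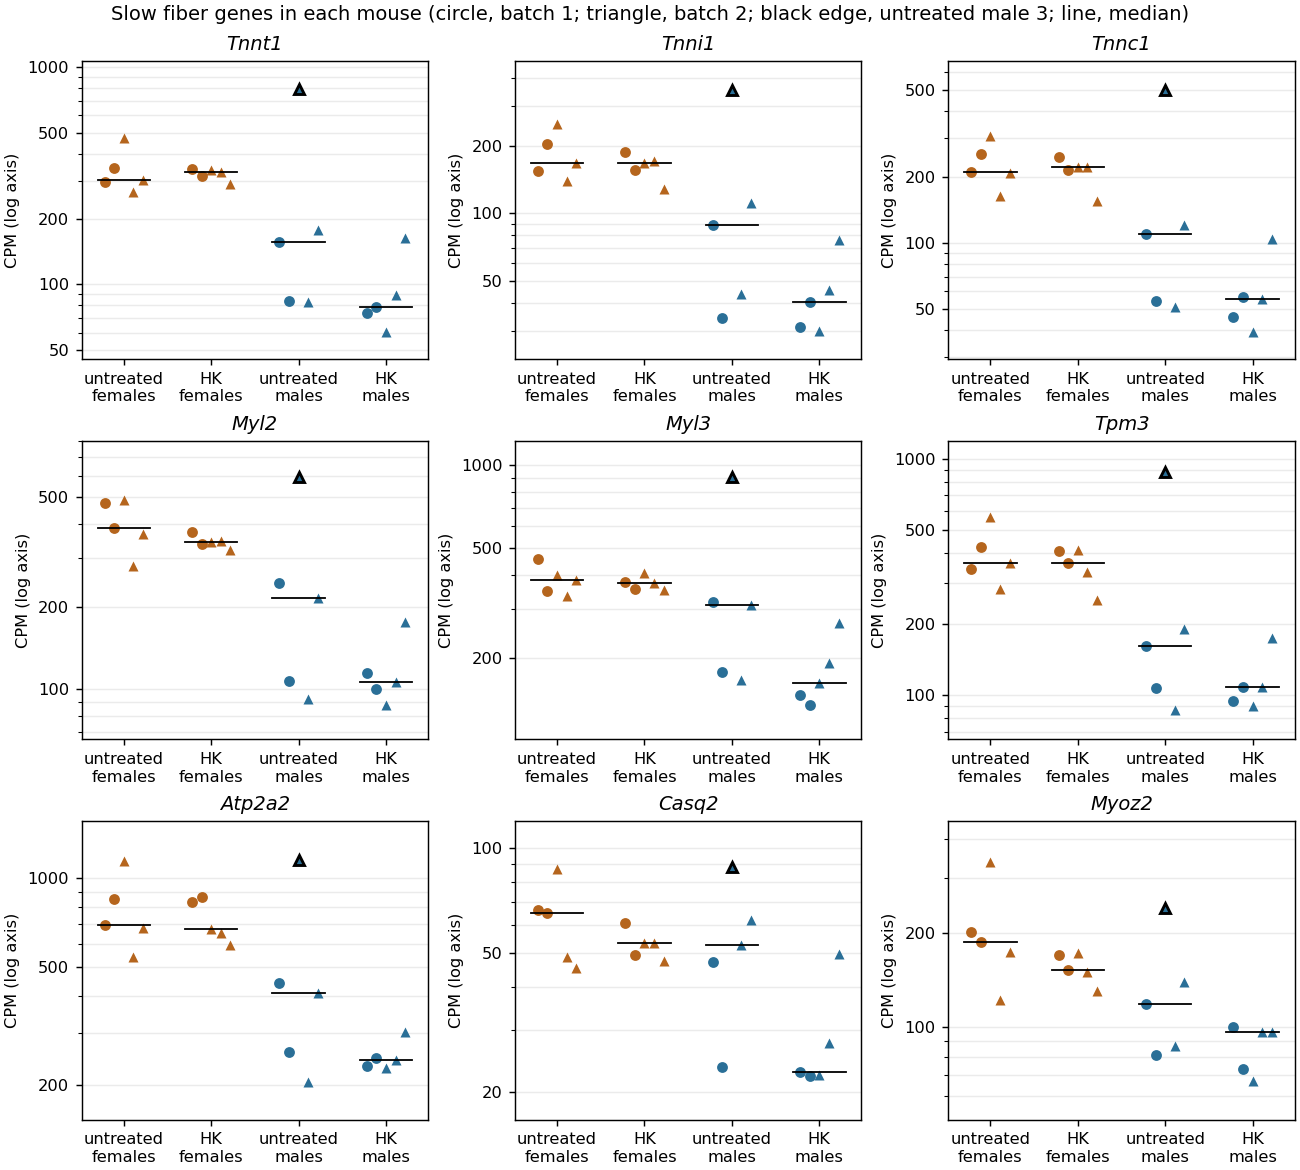
CPM of the 9 genes on log axes in each mouse, in 4 columns by sex and treatment, with circles for batch 1, triangles for batch 2, a line at the median of each column and a black edge for untreated male 3. For Tnnt1 the females lie between 266 and 470 CPM, 9 males between 60.1 and 178 CPM, and untreated male 3 at 791 CPM.

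Per kilobase of exon, the order of median levels in females was Tnnc1 (209 CPM per kb), Myl3 (183), Myl2 (183), Tnnt1 (146), Atp2a2 (113), Tpm3 (59.7), Myoz2 (50.1), Tnni1 (46.4) and Casq2 (19.6). The slow myosin heavy chain Myh7, which is the motor these genes serve, was at 139.5 CPM per kb. In the 9 males the order began with Myl3 (86.9 CPM per kb), Myl2 (54.9) and Tnnc1 (52.9) and ended with Tnni1 (12.1) and Casq2 (10.1). Exon length here is that of all annotated exons of a gene, so these levels are approximate and close neighbors such as Myl2 and Myl3 in females are not ordered by them.

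The comparison of the sexes asked how the slow genes differed between aged males and females whatever the treatment. With batch and treatment as covariates in edgeR's quasi-likelihood fit and Benjamini-Hochberg adjustment over all genes, 7 of the 9 were called lower in males at an adjusted p under 0.05 with all 20 mice, against 7.33% of all genes tested. The median log2 difference (male minus female) was -1.10 over the 9 genes and -0.01 over all genes. The 7 were Tnnt1 (-1.16 ± 0.35 SE, adjusted p = 0.0297), Tnni1 (-1.26 ± 0.34, 0.0147), Tnnc1 (-1.19 ± 0.36, 0.0268), Tpm3 (-1.10 ± 0.34, 0.0315), Myl2 (-1.14 ± 0.26, 0.00556), Atp2a2 (-1.10 ± 0.25, 0.00445) and Myoz2 (-0.74 ± 0.18, 0.0078). Myl3 (-0.58 ± 0.25, 0.116) and Casq2 (-0.57 ± 0.20, 0.0507) missed the threshold.

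Without untreated male 3 all 9 were called lower in males, against 7.66% of the genes tested. Females then had 3.06 times the Tnnt1 of males (95% interval 2.34 to 4.0), 3.13 times the Tnni1 (2.29 to 4.28), 3.12 times the Tnnc1 (2.34 to 4.17) and 2.98 times the Tpm3 (2.34 to 3.8). The differences were 2.7 times for Myl2 (2.09 to 3.47), 2.63 times for Atp2a2 (2.12 to 3.26), 1.85 times for Myoz2 (1.48 to 2.3), 1.82 times for Myl3 (1.48 to 2.23) and 1.6 times for Casq2 (1.24 to 2.07). Adjusted p ran from 2.18e-06 for Tpm3 to 0.0123 for Casq2. With all 20 mice, limma voom called 9 of 9 lower in males (7.36% of all genes) and DESeq2 8 (8.29%). Every female stood above each of these 9 males for 7 of the 9 genes, where 0.594% of all genes tested show this; with untreated male 3 among the males it held for 0 of 9 (0.389% of all genes). The thin-filament genes thus had the larger sex differences without untreated male 3, and Casq2, Myl3 and Myoz2 the smaller ones. In that fit the intervals of Tnni1 and Casq2 did not overlap. The fit of all 20 mice again gave Casq2, Myl3 and Myoz2 the smaller differences. There Tpm3 (log2 difference -1.10) did not exceed Myl2 (-1.14) or Atp2a2 (-1.10) in size. The log2 intervals of Tnni1 (-1.975 to -0.554) and Casq2 (-0.976 to -0.164) overlapped there. The difference between genes was not tested.

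The sex difference was then taken within each group and each batch. Among HK-treated mice alone all 9 genes were called lower in males (1.87% of all genes were), with a median log2 difference of -1.56. Among untreated mice alone 0 of 9 were called by edgeR (1.75% of all genes), 0 had an unadjusted p under 0.05, and the median was -0.65; without untreated male 3 it was -1.30, and Tnnt1, Tnnc1, Tpm3, Myl2 and Atp2a2 were called (1.19% of all genes). Batch 1 alone gave 9 calls (3.94%) and a median of -1.52. Batch 2 alone gave 0 calls (2.96%), 3 unadjusted p under 0.05 and a median of -0.79, and without untreated male 3 it gave 7 calls (2.58%) and a median of -1.39, with Casq2 (adjusted p = 0.336) and Myoz2 (0.0566) the exceptions. All 9 differences were negative in each of these subsets.

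**Figure D2:**
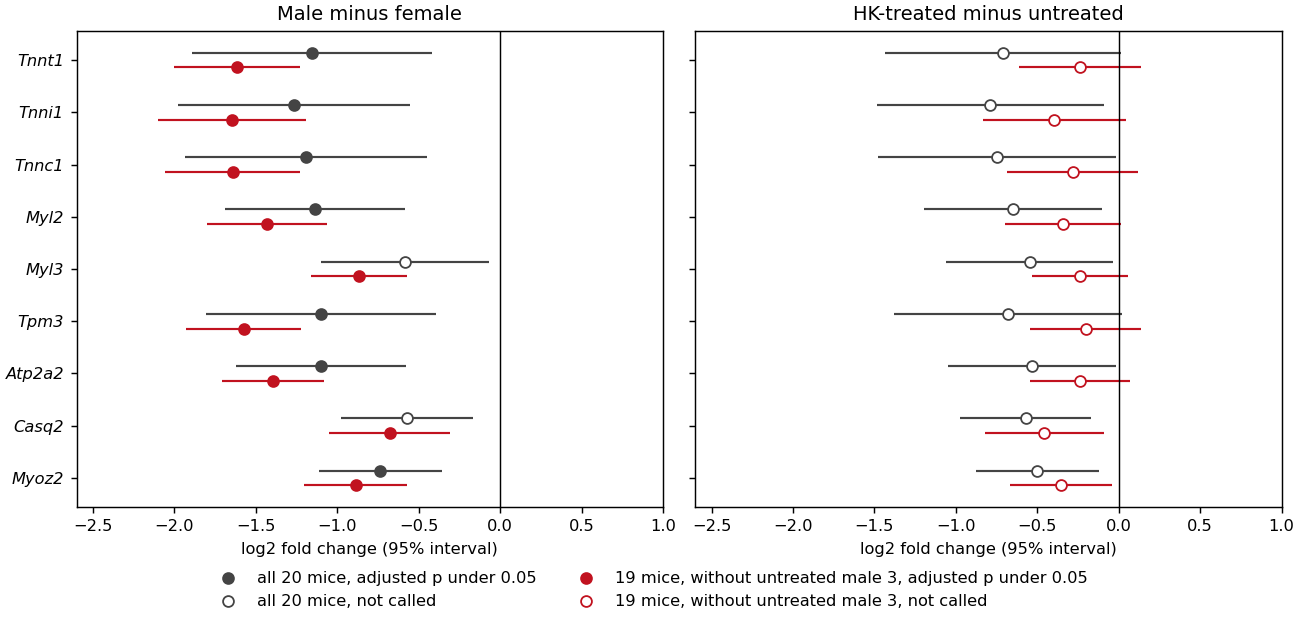
Log2 differences of the 9 genes with 95% intervals from edgeR's quasi-likelihood fit, with all 20 mice and without untreated male 3, for males minus females and for HK-treated minus untreated mice. Leaving out 1 mouse took the Tnnt1 sex difference from -1.16 to -1.61 and its HK difference from -0.71 to -0.24.

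Untreated male 3 was the highest of all 20 mice for 8 of the 9 genes, where 8.65% of all genes tested have their highest value in this mouse, and the second highest for Myoz2. It exceeded the median of the other 4 untreated males 6.58 times for Tnnt1, 6.54 times for Tpm3, 6.1 times for Tnnc1 and 5.33 times for Tnni1. The excess was 3.7 times for Myl3, 3.68 for Myl2, 3.43 for Atp2a2, 2.35 for Myoz2 and 1.77 for Casq2. Myh7 stood 6.11 times above the same median and the fast heavy chain Myh4 at 0.907 times it. Of 14 further genes of slow or oxidative fibers, Myh7 among them, 5 had their highest value in this mouse, with a median ratio of 2.06. Mybpc1 (0.841 times), Fabp3 (0.947) and Smpx (0.973) stood below the median of the other untreated males. Of the 9 fast-fiber partners of the members 0 had their highest value in untreated male 3, with a median ratio of 0.989. Among 20 regulators of fiber type 4 had their lowest value of all mice there, where 12.8% of all genes did, and they are named here after their values were seen. Mef2a and Nfatc1, known to favor the slow program, were at 131 and 43.1 CPM there, against 174 to 247 and 46.1 to 87.8 CPM in the other males. Sox6, a known repressor of slow genes, was at 97.3 CPM against 128 to 190, and Tbx15 at 246 CPM against 280 to 463. The list was mixed. Its median ratio to the other untreated males was 0.942, and 0 of the 20 had their highest value there. Ppargc1a (2.53 times that median), Prox1 (2.37), Vgll2 (1.79) and Rcan1 (1.58) stood above it, and Prox1 was at 4.41 CPM against 1.16 to 2.04 in the other males. Of 9 genes of regeneration and denervation 0 had their highest value in untreated male 3. Their median ratio to the other untreated males was 1.9, from 0.9 for Actc1 to 6.62 for Myh3. The summed levels of 3 of 8 lists of other cell types were also at their highest in this mouse: 6 fibro-adipogenic genes (1358 CPM, against 163 to 870.4 in the others), 6 endothelial genes (294.5 against 100.1 to 291) and 5 smooth muscle genes (191 against 76.9 to 164). Their part in its slow-gene values was not tested.

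Each slow gene was also set against its fast-fiber counterpart in the same library, since that share does not depend on the scaling of libraries. Tnnt1 was at 1.52% of Tnnt3 in the median female, 0.382% in the median of the 9 males and 3.18% in untreated male 3. For Tnni1 against Tnni2 these shares were 2.22%, 0.505% and 3.77%, and for Tnnc1 against Tnnc2 they were 2.42%, 0.533% and 4.78%. The shares are of CPM and not per length, so they serve to compare mice and not genes, and for all 3 troponin pairs no male but untreated male 3 reached the lowest female. Tpm3 was at 2.05%, 0.513% and 4.62% of Tpm1, which slow fibers express as well. Myl2 was at 5.09%, 1.44% and 6.87% of Mylpf, and Myl3 at 6.06%, 2.12% and 11.5% of Myl1. Atp2a2 was at 1.82%, 0.675% and 3.8% of the fast pump Atp2a1, Casq2 at 2.09%, 1.24% and 3.5% of Casq1, and Myoz2 at 9.3%, 4.18% and 11.8% of Myoz1. The male minus female difference in the log2 share ran from -0.83 for Casq2 to -1.80 for Tnni1 in all 20 mice and from -0.98 to -2.09 for the same genes without untreated male 3, values given with no test.

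**Figure D3:**
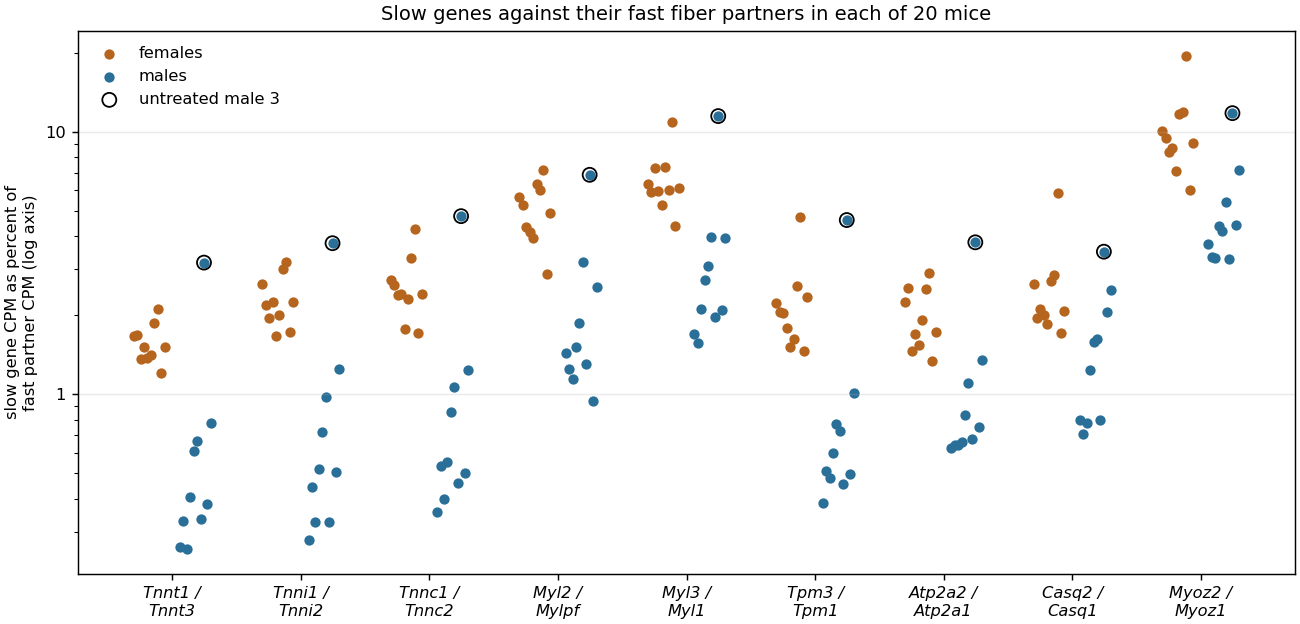
CPM of each slow gene as a percent of the CPM of its fast partner in each of 20 mice, on a log axis, by sex, with untreated male 3 marked. The median female was at 1.52% and the median of 9 males at 0.382% for Tnnt1 over Tnnt3, and untreated male 3 at 3.18%.

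Of the fast partners themselves, 5 of 9 were called higher in males, where 8.79% of all genes were: Tnnt3 (0.21, adjusted p = 0.0359), Tnni2 (0.33, 0.000891), Tnnc2 (0.32, 0.00286), Myl1 (0.44, 0.00213) and Myoz1 (0.30, 0.00397). Without untreated male 3, 4 of these 9 were called (9.03% of all genes), and Tnnt3 had an adjusted p of 0.0527. The log2 differences of the fast genes were thus at most 0.44 in size, and those of the slow genes at least 0.57. Of the heavy chains, Myh7 (-1.46, adjusted p = 0.00929) and the oxidative fast Myh2 (-0.45, 0.00265) were lower in males, and Myh1 and Myh4 were not called. Between HK-treated and untreated mice 0 of the 9 fast partners were called (log2 differences of -0.06 to 0.13, 0 unadjusted p under 0.05). Myh7 stood at -0.72 with HK (unadjusted p = 0.0598), and at -0.24 without untreated male 3.

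HK was compared with no treatment to ask whether the slow genes differed after 4 months of the extract. With all 20 mice the log2 differences (HK minus untreated) were negative for all 9 genes, with a median of -0.65 where that of all genes was 0.002. None of the 9 was called by edgeR at an adjusted p under 0.05 (adjusted p = 0.795 for each), and 0% of all genes were. The unadjusted p was under 0.05 for 7 of the 9, where 3.35% of all genes had this with a lower level in HK-treated mice. DESeq2 also called 0 of 9 with 7 unadjusted p under 0.05, and limma voom 0 of 9 with 2. Without the filter on low counts edgeR gave every gene the dispersion of the trend and called 9 of 9 lower with HK (0.847% of all genes), 9 lower in males (4.66%) and 8 for the interaction of HK and sex (0.422%). With the filter, the sizes were -0.57 ± 0.19 SE for Casq2 (unadjusted p = 0.00777), -0.50 ± 0.18 for Myoz2 (0.0117), -0.65 ± 0.26 for Myl2 (0.0221), -0.79 ± 0.34 for Tnni1 (0.0289), -0.55 ± 0.24 for Myl3 (0.0373), -0.53 ± 0.25 for Atp2a2 (0.0439) and -0.75 ± 0.35 for Tnnc1 (0.0458). Tnnt1 (-0.71 ± 0.35, 0.0537) and Tpm3 (-0.68 ± 0.34, 0.0552) were above 0.05.

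Without untreated male 3 the median was -0.28 and 0 of 9 were called (adjusted p = 0.998 for each), with unadjusted p under 0.05 for Casq2 and Myoz2 against 2.17% of all genes in that direction. Casq2 stood at -0.46 (95% interval -0.82 to -0.09, unadjusted p = 0.0177) and Myoz2 at -0.35 (-0.67 to -0.04, 0.0292). For the other 7 genes the intervals included 0, from -0.61 to 0.14 for Tnnt1 and from -0.83 to 0.04 for Tnni1.

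In HK-treated mice Casq2 was at 60.9, 49.5, 53.5, 53.5 and 47.5 CPM in females 1 to 5 and at 22.8, 22.2, 22.4, 27.6 and 49.65 CPM in males 1 to 5. In untreated mice it was at 66.3, 65.1, 87.2, 48.8 and 45.4 CPM in females and at 47.0, 23.6, 88.35, 52.8 and 62.4 CPM in males. With HK, 9 of 10 mice were under the median of the untreated mice (57.6 CPM). Of the males, 4 of 5 HK-treated were at 22.2 to 27.6 CPM and 4 of 5 untreated at 47.0 to 88.35 CPM, and HK-treated male 5 and untreated male 2 made the groups overlap. Myoz2 was at 170, 152, 173, 150.0 and 131 CPM in HK-treated females and at 99.9, 73.5, 67.3, 96.6 and 96.5 CPM in HK-treated males. It was at 202, 188, 339, 122 and 174 CPM in untreated females and at 119, 81.3, 241.5, 86.7 and 139 CPM in untreated males, so that 8 of 10 treated mice were under the untreated median of 156.5 CPM. For the other 7 genes 5 or 6 of the 10 HK-treated mice did. For none of the 9 was every HK-treated mouse below every untreated one, which 0% of all genes showed.

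By sex, the median log2 HK difference was -1.07 in males alone, with 8 unadjusted p under 0.05 (4% of all genes lower). In males without untreated male 3 it was -0.49, with 1 unadjusted p under 0.05, for Casq2 (0.0128, 2.44% of all genes), and in females alone -0.17, with 0 (1.41%). In edgeR's test of whether the HK difference itself differed between the sexes, 0 of 9 genes were called (adjusted p = 0.998, 0% of all genes). The log2 interaction (males minus females) ran from -0.21 for Myoz2 to -1.35 for Tnnt1, and Tnnt1 (0.0419), Tnni1 (0.0455) and Myl3 (0.0374) had unadjusted p under 0.05, where 1.69% of all genes did in that direction. DESeq2 called 0 with 1 unadjusted p under 0.05, and voom 0 with 0. Without untreated male 3 the interaction ran from -0.50 to 0.10, with 0 calls and 0 unadjusted p under 0.05 (1.29% of all genes lower).

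Between the batches 0 of the 9 genes were called, while 37.1% of all genes were in one direction or the other, and 0 of 9 had an unadjusted p under 0.05 (46.6% of all genes), in voom as well. Without untreated male 3 the calls were again 0 of 9, against 34.3% of all genes. The median log2 difference (batch 2 minus batch 1) was 0.35 with all mice and 0.05 without untreated male 3, a batch 2 mouse. The HK difference was negative for all 9 genes in both batches, with medians of -0.33 in batch 1 and -0.74 in batch 2, the latter -0.26 without untreated male 3.

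The 9 genes varied together from mouse to mouse. After removal of batch, sex and treatment, Pearson's r between pairs of genes had a median of 0.93 over 20 mice (36 pairs, 0.73 to 0.993), and Spearman's rho one of 0.856. Without untreated male 3 the median r was 0.825 (0.529 to 0.981) and the median rho 0.775. In two-sided permutation tests with 100000 resamples, all 36 pairs had an adjusted p under 0.05 in both sets, the highest being 0.0192 for r and 0.00796 for rho in the 19 mice. Leaving out for each pair the 2 mice farthest from the median of its first gene gave a median r of 0.86 in 20 mice and 0.756 in 19, with lowest values of 0.513 and 0.537. The genes share a library in each mouse, and levels scaled to one total are not independent of each other.

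Within the 19 mice, each of Tnnt1, Tnni1 and Tnnc1, the 3 subunits of slow troponin, had a median r of 0.882 to 0.89 with the other members, and Casq2 and Myoz2 the lowest medians, 0.701 and 0.702. In the 9 males other than untreated male 3 the median r was 0.913. In females alone it was 0.818, but values of single pairs fell to 0.173, Myl3 had a median of 0.326, and without the 2 farthest mice the median of pairs was 0.548 and the lowest -0.608. The mice left out were chosen anew for each pair, and leaving out extremes narrows the range, which by itself can lower r. Whether the relation within females rested on single mice was not tested.

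**Figure D4:**
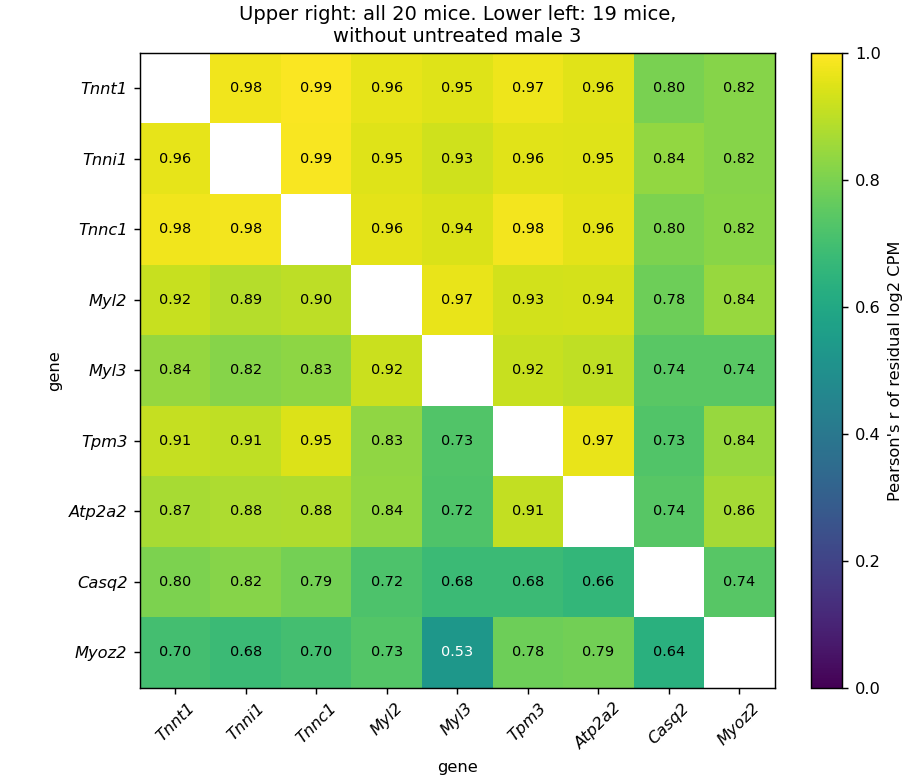
Pearson's r between the 9 genes after removal of batch, sex and treatment, over 20 mice and over the 19 mice without untreated male 3. The median over 36 pairs was 0.93 and 0.825, and Casq2 and Myoz2 had the lowest medians in the 19 mice.

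Over the 19 mice, the genes whose levels followed the mean of the 9 most closely were Myh7 (r = 0.935), Fhl2 (0.869), Tpm3-rs7 (0.855), Tecrl (0.853), Lgi1 (0.818), Shb (0.792), Gsto1 (0.765), Rnpep (0.76), Cdh22 (0.757) and Gm34302 (0.751). They were ranked by this r and no p is given. With all 20 mice r was 0.389 for Shb and 0.464 for Rnpep, and 0.78 (Gsto1) to 0.972 (Myh7) for the others. Tpm3-rs7 is a near-identical copy of Tpm3, so the counts of the pair are uncertain. Of the 10, 6 were also called lower in males in the 19 mice (7.66% of all genes), Myh7 (-1.93), Tecrl (-2.64), Gm34302 (-1.81), Tpm3-rs7 (-1.61), Lgi1 (-0.92) and Shb (-0.67).

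Beyond the members, 14 further genes of slow or oxidative fibers were read. All 14 had a negative HK difference with all 20 mice, 0 were called and 5 had an unadjusted p under 0.05 (3.35% of all genes in that direction): Actn2, a Z-disc actinin (-0.36, 0.00116), Ankrd2, a stretch-responsive ankyrin repeat protein (-0.84, 0.00118), Csrp3, the muscle LIM protein (-0.86, 0.00501), Myom3, an M-band protein (-0.42, 0.0124), and Mb, myoglobin (-0.23, 0.0319). Ankrd2 (-0.74), Csrp3 (-0.72), Actn2 (-0.33) and Myom3 (-0.31) also had an unadjusted p under 0.05 without untreated male 3, with Mybpc1 (-0.17, 0.0275) as the fifth (2.17% of all genes). Most of these genes followed the mean of the members loosely over the 19 mice. Their r was 0.124 for Csrp3, 0.377 for Ankrd2, 0.413 for Mb, 0.441 for Actn2, 0.596 for Mybpc1 and 0.719 for Myom3. Between the sexes 4 of the 14 were called lower in males (7.33% of all genes; 5 of 14 without untreated male 3, against 7.66%), among them Mybpc1, the slow myosin-binding protein C (-0.52, adjusted p = 3.9e-05), Myh7 and Myom3 (-0.47, 0.0421), and none higher. The median log2 sex difference was -0.065 over these 14 genes and -1.10 over the 9 members.

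Among 20 regulators of fiber type, Prox1, a homeobox factor of slow fibers (-1.23, adjusted p = 0.000392), Ppp3ca, the catalytic subunit of calcineurin (-0.36, 7.9e-05), and Vgll2, a TEAD partner (-0.59, 0.00434), were called lower in males. In all, 4 were lower (7.33% of all genes) and 2 higher (8.79%), and without untreated male 3 these were 4 (7.66%) and 3 (9.03%). None was called between HK-treated and untreated mice, with Nfatc1 (0.19, unadjusted p = 0.0376) and Tead1 (0.17, 0.015) higher at an unadjusted p under 0.05, as 2.78% of all genes were. In the 19 mice the 1 below 0.05 was Tead1 (0.14, 0.0299), against 1.95% of all genes. Of 9 genes of regeneration and denervation 0 were called in either comparison, and 4 had an unadjusted p under 0.05 and lower levels in HK-treated mice (3.35% of all genes), Myh3 (-1.43, 0.00456), Myh8 (-0.63, 0.00891), Myl4 (-0.61, 0.02) and Ncam1 (-0.49, 0.0404). In the 19 mice Myh3, Myh8 and Myl4 were below 0.05 (2.17% of all genes) and Ncam1 was at 0.0798. Myh8 stood at 0.04 in batch 1 alone and -1.02 in batch 2 alone, and that difference was not tested.

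Markers of other cell types in whole muscle moved with sex in part. Of 6 adipocyte markers 5 were called lower in males (7.33% of all genes), 4 without untreated male 3 (7.66%), and their summed level was 8.65 to 155 CPM in females and 9.28 to 80.5 CPM in the 9 males. Of 6 Schwann cell markers 5 could be tested and 3 were called lower in males, 2 without untreated male 3 (52.8 to 143 CPM in females, 22.9 to 105 CPM in the 9 males). Of 8 macrophage markers 1 and of 5 tested tendon markers 1 were called higher in males, and 0 of 5 blood, 6 endothelial, 6 fibro-adipogenic and 5 smooth muscle markers were called. The adipocyte marker Lep had 0 counts in 1 mouse, the Schwann cell marker Pmp2 had 0 counts in 16 mice, and no other marker was at 0 in any mouse. Between HK-treated and untreated mice 0 markers of the 8 lists were called. The part of these cells in the sex difference of the slow genes was not tested.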

How the data were processed

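Gene-level RNA-seq counts of the gastrocnemius of 20 mice were analyzed, with group, sex, batch and replicate taken from the labels. The authors aligned reads with STAR 2.6.1c in two-pass mode to GRCm38.p6 with GENCODE M25 and deposited raw counts per gene, whole numbers with no normalization or batch correction. How reads were assigned to genes (tool, strand, multiple mapping) is not given in the sources used here. This could change the counts of overlapping and near-identical genes. The young mice were not analysed here.

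Names, positions and exon lengths came from GENCODE M21 (GRCm38), which matched 55141 of 55401 identifiers, and promoter sequences from RefSeq. The deposited counts were filtered with filterByExpr, scaled by TMM and tested with edgeR 4.0.16 (glmQLFit and glmQLFTest, R 4.3.3) with batch, sex and treatment as terms, and p-values were adjusted by Benjamini-Hochberg over all genes tested. The script was tested on simulated data. CPM were computed from TMM-scaled library sizes, and log2 CPM with a prior count of 2 for correlations and ratios. Figures and permutation tests used Python 3.11.15, numpy 2.4.6, pandas 2.3.3 and matplotlib 3.10.9. Alternatives were DESeq2 1.42.0, limma 3.58.1 (voom), DESeq2 size factors, no filter, no sex or no covariates, each sex, group or batch alone, a replicate block and each mouse left out. Subsets with untreated male 3 also left out, and correlations within a sex, were added after seeing the data.

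The members and gene lists were chosen with earlier results of these data known. Genes named by rule are the 9 members, their 9 fast partners, 4 adult heavy chains, the 10 genes most alike, and of the other muscle lists those with an unadjusted p under 0.05 for HK in either fit and at most the 3 with the lowest p in other comparisons. Further genes of these lists are named for their values in untreated male 3, after those were seen. Ddx3y and Xist are named as sex checks, Nisch as an overlapping gene, and Lep and Pmp2 as markers without counts in some mice. Samples of a group are separate mice. Total counts of 13900180 to 30469644 per mouse leave counting error small beside the spread between mice for these genes.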

Additional observations from a re-analysis of the deposited data

Results flagged for a closer look

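Casq2 in untreated male 2, at 4.57 log2 CPM, lay farther below the other 9 untreated mice than chance usually allows in a group of 10, by Dixon's gap test at 95% (18 groups of the 9 genes were tested, and chance marks about 1 in 20 groups). The mouse was at 23.6 CPM, next to 4 of the 5 HK-treated males, and the other untreated mice were at 45.4 CPM or above. The 4 other untreated males lay between 47.0 and 88.35 CPM. The same test marked untreated male 3 for none of the 9 genes. Where untreated male 3 was the highest untreated mouse, its gap was 0.003 (Atp2a2) to 0.402 (Myl3) of the range, against a critical value of 0.466. Each tested group held both sexes, and the sex difference of these genes widened its range. Neither the mark on untreated male 2 nor its absence for untreated male 3 therefore measures how far a mouse lay from others of its sex.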

How the results depend on the processing

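The 9 members had negative sex and HK differences in every fit run. For HK against no treatment, 0 of 9 were called in every alternative but the fit without a filter on low counts, which called 9 (0.847% of all genes lower) and, for the interaction, 8 (0.422%). There every gene took the dispersion of the trend and standard errors fell to 0.067 to 0.072 from 0.18 to 0.352, so these calls do not rest on the spread of the genes themselves. The median HK difference was -0.334 in batch 1 alone, -0.261 in batch 2 without untreated male 3, -0.169 in females, -1.066 in males, and between -0.74 and -0.282 with 1 mouse left out, the last without untreated male 3. The median sex difference was -1.563 in HK-treated and -0.649 in untreated mice alone, -1.517 in batch 1, -0.793 in batch 2 (-1.388 without untreated male 3), and -1.431 to -1.032 with 1 mouse left out. Calls by sex numbered 0 in batch 2 and 0 in untreated mice alone, and 4 (without HK-treated male 1) to 9 (without untreated male 3) with 1 mouse left out; they fell to 5 without HK-treated male 2, HK-treated male 4 or untreated male 2. With 1 mouse left out the interaction median ran from -1.197 to -0.375 and the batch median from 0.048 to 0.43. The median correlation was 0.818 in females and 0.825 without untreated male 3. The cause was not tested other than for the absent filter. Of single members' values, 180 for HK and 163 for sex with 1 mouse left out kept their direction and side of the threshold, 12 for sex lost the call and 5 gained it.

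Some differences changed sign. For HK, these were Myl1 in males (-0.016, and -0.011 without untreated male 3; -0.045 to 0.07 with 1 mouse left out), Tpm1 (-0.027), Atp2a1 (-0.016), Myh4 (-0.007) and Myh8 (0.041, against -0.632 in all mice) in batch 1, Myoz1 in females (-0.015), and Myh1 in batch 2 (0.011), in males (0.046, and 0.008 without untreated male 3), under the replicate block (0.002) and with 1 mouse left out (-0.051 to 0.03). For sex, these were Atp2a1 (0.131), Myh1 (0.255) and Myh4 (0.218) in batch 1. With 1 mouse left out, the batch difference ran from -0.072 to 0.261 for Myl2 and from -0.127 to 0.202 for Atp2a2, and the interaction of Myoz2 from -0.475 to 0.098.

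For mice with the same replicate number, 4 of 10 pair correlations of their deviations were over 0.1 (-0.425 to 0.174), all 4 in females. Replicates 1 and 2 gave the same value within each sex (-0.425 in males, 0.174 in females), so the 10 values are not separate observations. Whether the numbers pair the mice cannot be told from them. With the replicate block the members' median HK difference was -0.416, with 0 calls and 2 unadjusted p under 0.05.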
